A study of Mus musculus with 16 samples.

Results

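The comparison described here is that of a high fat diet (HFD) with the diet labelled NCD in the inguinal mammary gland of the mouse during lactation, with no metformin in either group. Its members are 8 of the 16 libraries of the study: 4 libraries with the diet label HFD and the treatment label Control, and 4 with the diet label NCD and the same treatment label. RNA was taken from the whole gland, all 16 libraries carry the age label postnatal day 16, and the study's title places them in mid-lactation. The other 8 libraries are the same pair of diets with metformin (4 each) and entered only the estimate of the spread and the comparison made near the end of the text. The labels give no strain, genotype, parity or diet composition, and do not expand NCD or PN. Nor is it stated that each library is a different mouse, so every test here sees just the variation among libraries, part or all of which may be technical.

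The lactating gland is a secretory epithelium of luminal cells surrounded by contractile myoepithelial cells and embedded in adipose and fibrous tissue. Luminal cells make the caseins and whey proteins, build fatty acids from glucose and take up further fatty acids from circulating lipoproteins, and dietary fat is known to restrain fatty acid synthesis in the gland. Because the whole gland was sampled, fewer cells of a type and less RNA per cell cannot be told apart in any of the values below.

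The 8 libraries held between 8649316 and 39075290 estimated reads, and HFD control 4 was the shallowest of them. The libraries are numbered 1 to 4 within each group in the order of deposit, which pairs nothing. Their titles carry other numbers: 1, 2, 3 and 14 in NCD control 1 to 4 and 7, 17, 18 and 26 in HFD control 1 to 4. Over all 16 libraries these numbers have a gap between 10 and 14. Most NCD control libraries lie below that gap and most HFD control libraries above it, and what the gap stands for was not tested. The milk protein genes took 70.8%, 72.3%, 69.9% and 72.2% of the reads in NCD control 1 to 4 and 73.8%, 75.0%, 74.6% and 72.8% in HFD control 1 to 4, so both groups carried the main product of the lactating gland. Skeletal muscle markers took 0.558% of the reads in NCD control 3 and at most 0.0037% in the other 7 libraries. Levels are given as CPM, a gene's reads scaled to the sequencing depth of its library after adjustment by the trimmed mean of M values (TMM). The mean log2 CPM of the 19 muscle markers tested, out of 22 listed, was 6.75 in NCD control 3 and ran from -2.08 to 0.43 in the other 7. Acta1, the actin of skeletal muscle, stood at 414 CPM in NCD control 3 and at most 3.61 CPM in any of the others. NCD control 3 also had the highest adipocyte marker score, 4.51 against 2.22 to 3.70 in the other 7, and results that touch these lists are given with and without that library. The muscle markers had a median log2 fold change (HFD minus NCD) of -6.2, and of -0.47 without NCD control 3, with 16 of the 19 then below 0 and none called. Their summed level was 32.2, 16.9 and 5.64 CPM in NCD control 1, 2 and 4 and 6.54, 6.985, 30.7 and 7.26 CPM in HFD control 1 to 4.

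**Figure D1:**
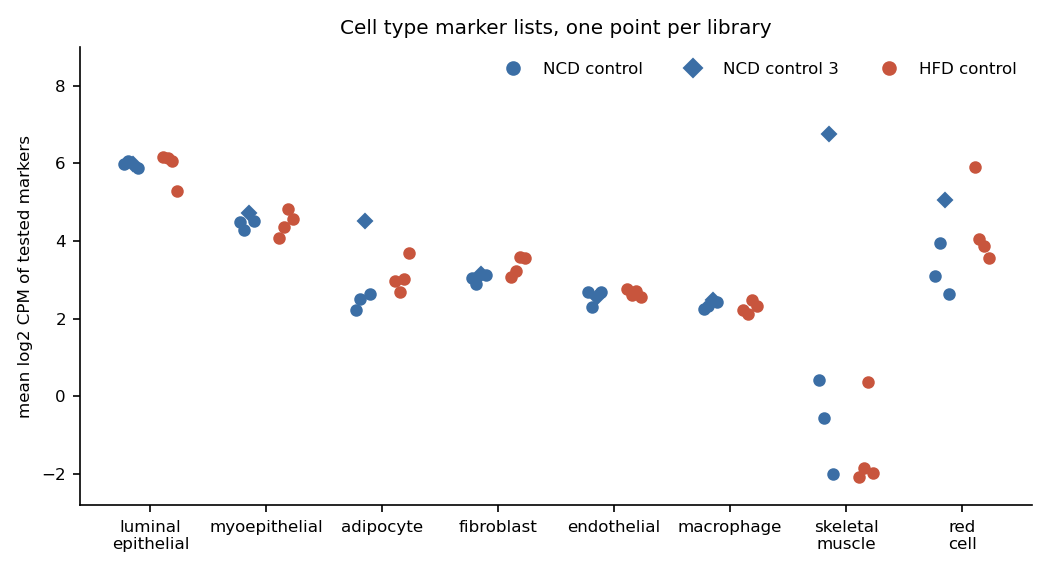
Mean log2 CPM of the tested markers of 8 cell types (horizontal axis) in each library, NCD control in blue and HFD control in red, with NCD control 3 as a diamond. NCD control 3 stands at 6.75 for skeletal muscle and 4.51 for adipocytes, above the other 7 libraries in both.

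Few genes separated the diets. Of 12506 genes tested with edgeR, 8 passed an adjusted p of 0.05 (0.064% of the genes tested), 6 of them lower on the high fat diet (0.048%) and 2 higher (0.016%). Described here are 7 of them: Cyp1a1, Prol1, Adig, Renbp and Mpzl2 fell, and Scnn1b and Ddah1 rose. In each of these 7 genes the 4 HFD libraries lay entirely on one side of the 4 NCD libraries. At an unadjusted p under 0.05, 493 genes were lower (3.94%) and 388 higher (3.10%), and the groups did not overlap in 281 genes with lower values (2.25%) and 234 with higher (1.87%). The median log2 fold change over all tested genes was 0.00, with 49.5% of genes below 0. Without NCD control 3, 5 of 12636 genes passed (0.0396%), all 5 of them among the 8, and 49.9% of genes had a log2 fold change above 0. Leaving out any other one of the 16 libraries gave from 2 genes (without HFD control 3) to 13 (without NCD metformin 3). The count was also at most 5 without NCD control 1 (4), NCD control 2 (4), HFD control 1 (3), NCD metformin 1 (4) or NCD metformin 2 (5). Fitted on the 8 libraries alone, without the spread of the metformin groups, edgeR called 9 genes, 3 of them among the 8; Cyp1a1 and Prol1 passed in that fit, and the calls of Adig, Scnn1b, Renbp, Ddah1 and Mpzl2 ended.

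**Figure D2:**
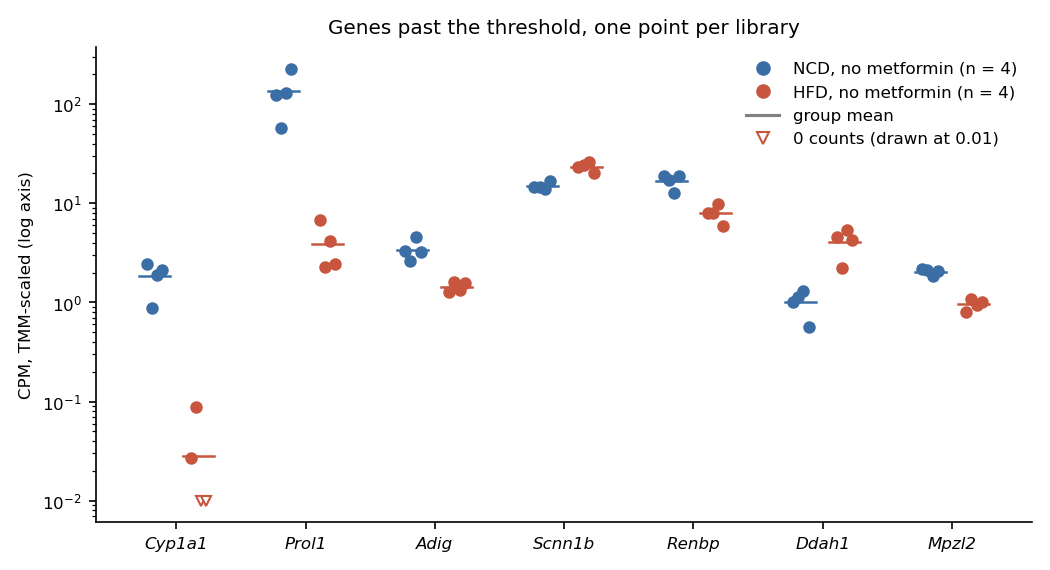
CPM on a log axis for the 7 genes described, 1 point per library, NCD in blue and HFD in red, with a line at each group mean and open triangles for libraries with 0 counts. In all 7 genes the points of the groups do not overlap, with the widest separation in Cyp1a1 and Prol1.

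Cyp1a1 showed the largest difference of the 7 genes. It encodes a cytochrome P450 that oxidises planar aromatic compounds and is the classic target of the aryl hydrocarbon receptor, a transcription factor activated by ligands from food, microbes and pollutants. The gene lies on chromosome 9 from 57687928 to 57703824 on the plus strand (GRCm38). Cyp1a1 stood at 2.43, 0.878, 1.91 and 2.12 CPM in NCD control 1 to 4 and at 0.0268, 0.0873, 0 and 0 CPM in HFD control 1 to 4. Every NCD library was at least several times its own floor of 3 counts, and no HFD library reached that floor. In all, 242 Cyp1a1 reads were counted in the NCD libraries and 3 in the HFD libraries, and per read sequenced the HFD level was 1.42% of the NCD level (exact 95% interval 0.290% to 4.19%, counting error only). The fitted log2 fold change was -5.74 ± 0.67, where ± gives a standard error (SE) worked back from the test statistic. The adjusted p was 0.0012 from edgeR's quasi-likelihood test, and the gene passed under each of the 27 alternative settings. All of its reads in both groups were assigned to 1 transcript.

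The promoter of Cyp1a1 is shown because the response element of the aryl hydrocarbon receptor has the core GCGTG. These are the 250 bases before the RefSeq start (GRCm38.p6, chr9:57697363-57697612, plus strand), 5′ to 3′, with the core in capitals.
Cyp1a1: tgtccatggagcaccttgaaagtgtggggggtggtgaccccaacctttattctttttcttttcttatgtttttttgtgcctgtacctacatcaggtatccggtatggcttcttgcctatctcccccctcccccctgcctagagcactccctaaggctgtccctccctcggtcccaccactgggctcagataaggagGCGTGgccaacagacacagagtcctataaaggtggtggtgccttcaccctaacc
The core begins 54 bases before the start. GCGTG, searched on both strands, is present in 32.4% of the 32851 mouse promoters of 300 bases in the table, so a match is a description of the sequence only.

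The other genes around the aryl hydrocarbon receptor did not pass. Of 16 genes listed, 8 were tested, and Cyp1a1 was the only one called; the median log2 fold change of the 8 was 0.12, against 0.00 over all genes. Ahr, the receptor itself, stood at 1.63 to 1.97 CPM in the NCD libraries and 1.82 to 2.46 CPM in the HFD libraries (log2 fold change 0.30 ± 0.19, adjusted p = 0.85). Nfe2l2, which encodes the antioxidant regulator NRF2, had a log2 fold change of 0.21 ± 0.15 (adjusted p = 0.88). Tiparp, an ADP-ribosyltransferase induced through the receptor, stood at 14.3 CPM in NCD control 3 and 3.46 to 6.04 CPM in the other 7, and its log2 fold change went from -0.60 to 0.09 without that library. None of the 13 other tested genes within 250 kb of Cyp1a1 passed.

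Prol1 was the most abundant of the 5 genes described that fell. It encodes a proline-rich secreted protein known from saliva and tears, and it lies on chromosome 5 from 88317312 to 88328814 on the plus strand. Prol1 stood at 124, 57.9, 130 and 228 CPM in NCD control 1 to 4 and at 6.81, 2.27, 4.14 and 2.46 CPM in HFD control 1 to 4. The lowest NCD library was still far above the highest HFD library, and NCD control 2 and 4 were the lowest and highest of the NCD libraries. The log2 fold change was -5.04 ± 0.70 (adjusted p = 0.0071), which is 32.9-fold lower on the high fat diet. The adjusted p was 0.054 without HFD control 3, with no other single library ending the call, and 0.052 without NCD control 3 and HFD control 4 together. All Prol1 reads were assigned to 1 transcript, and none of the 3 other tested genes within 250 kb passed.

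Of 18 genes listed for secreted proteins of the salivary type, 9 were tested, Prol1 was called, 6 were below 0, and the median was -0.64. Lcn2, lipocalin 2, which binds bacterial siderophores, stood at 657, 611, 603 and 739 CPM in NCD control 1 to 4 and at 525, 494, 311 and 338 CPM in HFD control 1 to 4. The groups of Lcn2 did not overlap, but its log2 fold change of -0.64 ± 0.28 did not pass (adjusted p = 0.67). Cst6, cystatin E/M, a protease inhibitor, rested on 1 library: 31.4 CPM in NCD control 1 and at most 0.349 CPM in the other 7. Odam, a secreted protein of enamel and epithelia, had a log2 fold change of 0.60 ± 0.29 (adjusted p = 0.73).

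Adig, adipogenin, a small membrane protein of fat cells that takes part in lipid droplet formation, fell. Adig lies on chromosome 2 from 158502612 to 158508198 on the plus strand. It stood at 3.32, 2.63, 4.54 and 3.19 CPM in NCD control 1 to 4 and at 1.29, 1.62, 1.33 and 1.56 CPM in HFD control 1 to 4. All 4 HFD libraries lay below the lowest NCD library. The log2 fold change was -1.25 ± 0.18 (adjusted p = 0.012), a 2.39-fold lower level, and -1.10 without NCD control 3. The call ended without HFD control 1 (adjusted p = 0.11), without HFD control 3 (0.080), with the 8 libraries alone (0.083) and without NCD control 3 and HFD control 4 together (0.060).

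The other adipocyte markers did not follow Adig. Of 20 listed, 19 were tested, Adig alone was called, and the median log2 fold change was -0.30 with all 8 libraries and 0.52 without NCD control 3, when only 2 of the tested markers stayed below 0. Adipoq, the fat cell hormone adiponectin, stood at 6.84, 9.11, 75.5 and 9.10 CPM in NCD control 1 to 4 and at 19.4, 10.6, 14.6 and 32.4 CPM in HFD control 1 to 4. Without NCD control 3 every HFD library lay above every NCD library in Adipoq, and its log2 fold change turned from -0.41 ± 0.68 to 1.16, neither of which passed (adjusted p = 0.98 and 0.68). Lep, the satiety hormone leptin, had a log2 fold change of 1.15 ± 0.48 (adjusted p = 0.65), with its highest value, 5.38 CPM, in HFD control 3. Cfd, the adipocyte serine protease adipsin, stood at 564 CPM in NCD control 3 and 52.8 to 153 CPM in the other 7.

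Renbp, Scnn1b, Ddah1 and Mpzl2 passed with adjusted p-values between 0.035 and 0.041, and each of these calls depended on single libraries. Renbp encodes the renin-binding protein, an N-acylglucosamine epimerase of amino sugar metabolism, and lies on the X chromosome from 73922121 to 73930850 on the minus strand. It stood at 18.7, 17.1, 12.8 and 19.04 CPM in NCD control 1 to 4 and at 7.94, 8.03, 9.74 and 5.92 CPM in HFD control 1 to 4. The highest HFD library lay below the lowest NCD library, NCD control 3. The log2 fold change was -1.08 ± 0.18 (adjusted p = 0.035), a 2.11-fold lower level. The call ended without any one of NCD control 1, 2 or 4, any HFD control library, or NCD metformin 1 or 2 (adjusted p 0.051 to 0.14), with the 8 libraries alone (0.072) and with a term for the gap in the title numbers (0.079). When counts were rebuilt from TPM, the value was -0.36 (adjusted p = 0.97); a Renbp transcript of 147 coding bases held 3.8 reads in HFD control 1 and 0 in the other 7.

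Among 19 tested gene entries of sialic acid metabolism, which adds acidic sugars to milk glycoproteins and oligosaccharides, Renbp was the only one called and the median was -0.03. St6galnac2 is counted there under separate entries. St3gal3, a sialyltransferase, stood at 8.34 to 9.16 CPM in the NCD libraries and 6.25 to 8.003 CPM in the HFD libraries without overlap (log2 fold change -0.33 ± 0.11, adjusted p = 0.48). St6gal1, another sialyltransferase, had a log2 fold change of 0.31 ± 0.17 (adjusted p = 0.80).

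Scnn1b encodes the beta subunit of the epithelial sodium channel, which takes up sodium at apical membranes, and lies on chromosome 7 from 121865038 to 121918514 on the plus strand. It stood at 14.6, 14.5, 13.8 and 16.7 CPM in NCD control 1 to 4 and at 23.2, 24.2, 26.2 and 20.4 CPM in HFD control 1 to 4. Each HFD library lay above the highest NCD library, and the spread within each group was small. The log2 fold change was 0.66 ± 0.11 (adjusted p = 0.035), a 1.58-fold higher level. The call ended without any one of NCD control 1, 2 or 3, HFD control 1, 2 or 3, or NCD metformin 1 (adjusted p 0.058 to 0.21), among them 0.14 without NCD control 3. It also ended with the 8 libraries alone (0.077), with scaling by library size alone (0.064), with the term for title numbers (0.079) and without NCD control 3 and HFD control 4 together (0.085). Of 25 tested genes of ion and water transport, Scnn1b was the only one called, with a median of 0.08. Atp2b2, the plasma membrane pump that moves calcium into milk, had a log2 fold change of 0.57 ± 0.31 (adjusted p = 0.80).

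Ddah1 encodes a dimethylarginine dimethylaminohydrolase, which removes methylarginines that inhibit nitric oxide synthases, and lies on chromosome 3 from 145758675 to 145894277 on the plus strand. It stood at 1.01, 1.14, 1.301 and 0.567 CPM in NCD control 1 to 4 and at 4.59, 2.23, 5.41 and 4.24 CPM in HFD control 1 to 4. All HFD libraries lay above all NCD libraries, with HFD control 2 the lowest of its group. The log2 fold change was 2.04 ± 0.35 (adjusted p = 0.041), a 4.10-fold higher level. The call ended when any one of 10 libraries was left out, every NCD control library, HFD control 1, 3 or 4, and NCD metformin 1, 2 or 4 (adjusted p 0.051 to 0.21), and it was 0.067 without NCD control 3. It also ended with the 8 libraries alone (0.072), with counts rebuilt from TPM (0.20), with the term for title numbers (0.079) and without NCD control 3 and HFD control 4 together (0.13). Of 17 tested genes of arginine and nitric oxide metabolism, Ddah1 was the only one called and the median was -0.03. The cationic amino acid transporters Slc7a2 and Slc7a1 had log2 fold changes of 0.85 ± 0.30 and 0.83 ± 0.33 (adjusted p = 0.53 and 0.64), and in both HFD control 2 lay within the range of the NCD libraries.

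Mpzl2 encodes an adhesion protein of epithelial junctions and lies on chromosome 9 from 45039799 to 45054015 on the plus strand. It stood at 2.17, 2.11, 1.84 and 2.09 CPM in NCD control 1 to 4 and at 0.805, 1.09, 0.949 and 1.01 CPM in HFD control 1 to 4. The HFD libraries all lay below the NCD libraries, each of which was near the others of its group. The log2 fold change was -1.10 ± 0.19 (adjusted p = 0.041), a 2.15-fold lower level. The call ended when any one of 11 libraries was left out, all 8 of the libraries compared among them (adjusted p 0.059 to 0.22). It also ended with the 8 libraries alone (0.11), with no filter on low counts (0.071), with the term for title numbers (0.079) and without NCD control 3 and HFD control 4 together (0.12). Of 17 tested genes of tight junctions and adhesion, Mpzl2 was the only one called, with a median of 0.03, and F11r, which encodes the junctional adhesion molecule A, had a log2 fold change of 0.24 ± 0.10 (adjusted p = 0.65).

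**Figure D3:**
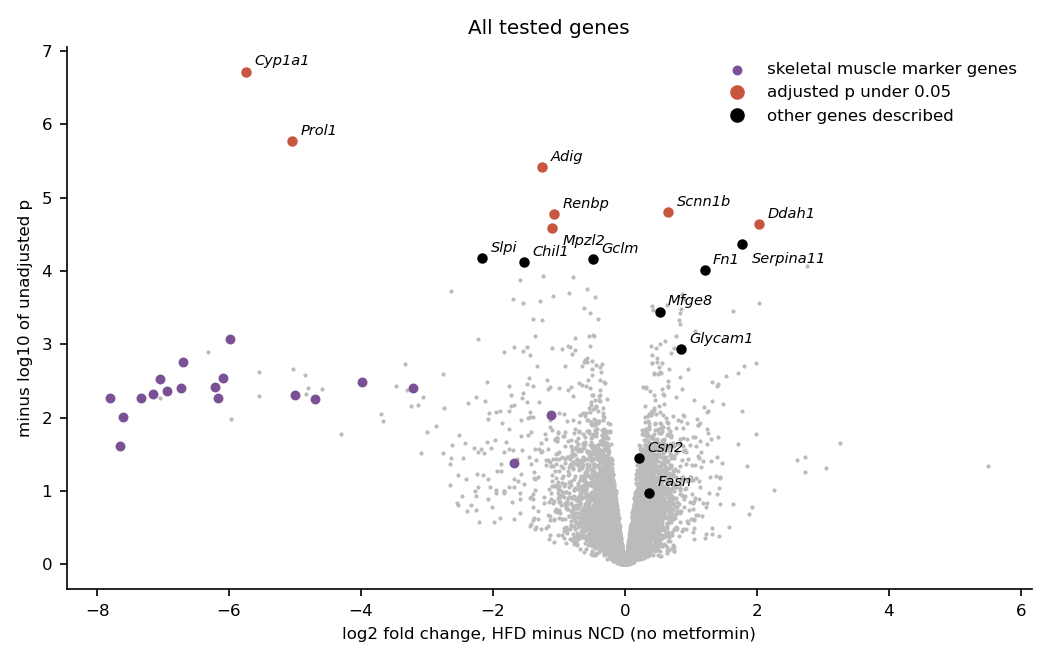
Log2 fold change (horizontal axis, HFD minus NCD) against minus log10 of the unadjusted p (vertical axis) for the tested genes reported here, with the 7 genes described in red, other described genes in black and skeletal muscle markers in purple. The muscle markers spread to the left at low p, mostly through NCD control 3: their median is -6.2 with all 8 libraries and -0.47 without it. Cyp1a1 and Prol1 stand above the other points drawn.

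The genes next in order of p did not pass the adjusted threshold in the main test. On the lower side these included Slpi, Chil1, Pon3, Bcl2l15 and Slc39a4, besides genes of glutathione metabolism given below. Slpi, a secreted inhibitor of leukocyte proteases, stood at 16.3, 6.21, 13.0 and 4.45 CPM in NCD control 1 to 4 and at 2.47, 1.70, 1.96 and 3.01 CPM in HFD control 1 to 4, with no overlap. Its log2 fold change was -2.16 ± 0.41 (adjusted p = 0.078), and it passed without NCD control 4 (0.025) and without HFD metformin 3 (0.049). Chil1, a secreted chitinase-like protein of epithelia and macrophages, stood at 3.97 to 6.61 CPM in the NCD libraries and 1.13 to 2.88 CPM in the HFD libraries (log2 fold change -1.53 ± 0.29, adjusted p = 0.078), and it passed without HFD control 2 (0.023) and without NCD metformin 3 (0.043). Slc39a4, the zinc importer ZIP4, stood at 4.64 to 6.95 CPM and 1.42 to 2.40 CPM (log2 fold change -1.60 ± 0.32, adjusted p = 0.097), and it passed without NCD metformin 3 (0.043) and with the 8 libraries alone (0.034). Pon3, a lactonase of the paraoxonase family, and Bcl2l15, a member of the BCL2 family, had log2 fold changes of -1.24 ± 0.25 and -0.79 ± 0.16, both with an adjusted p of 0.096 and no overlap. Bcl2l15 passed without NCD metformin 3 (0.043) and with a term for the gap in the title numbers (0.043). Slpi, Chil1, Pon3, Bcl2l15 and Slc39a4 all passed with DESeq2 (adjusted p 2.7e-05 to 0.0010). They also passed with scaling by library size alone (0.026 to 0.034), which moved the median of all genes to -0.16. Chil1, Bcl2l15 and Slc39a4 passed with limma-voom (0.019 to 0.036), and Slpi with no filter on low counts (0.049).

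On the higher side, Serpina11, a protein of the serpin family, came closest to the threshold. It stood at 1.59, 2.602, 2.16 and 1.25 CPM in NCD control 1 to 4 and at 5.79, 5.33, 8.003 and 6.81 CPM in HFD control 1 to 4. All HFD libraries lay above all NCD libraries; the log2 fold change was 1.77 ± 0.32 (adjusted p = 0.060), and it passed without HFD metformin 2 (0.015), HFD metformin 4 (0.036) or NCD metformin 3 (0.043), and with the 8 libraries alone (0.029). Agt, angiotensinogen, the precursor of the angiotensin peptides, stood at 95.3 to 141 CPM in the NCD libraries and 162 to 197 CPM in the HFD libraries (log2 fold change 0.64 ± 0.14, adjusted p = 0.13). Adcy2, an adenylyl cyclase, stood at 0.448 to 2.03 CPM in the NCD libraries and 1.83 to 9.49 CPM in the HFD libraries, where HFD control 2 lay inside the NCD range (log2 fold change 2.03 ± 0.44, adjusted p = 0.12), and it passed without that library (0.023). Limch1, an activator of non-muscle myosin, stood at 0.776 to 1.56 CPM and 2.88 to 4.45 CPM without overlap (log2 fold change 1.64 ± 0.37, adjusted p = 0.13). The value of Limch1 was 0.73 with counts rebuilt from TPM (adjusted p = 0.98), and it passed with the 8 libraries alone (0.049). With DESeq2, Serpina11 (4.3e-05), Agt (0.0027), Adcy2 (0.00077) and Limch1 (0.0031) passed. Serpina11 also passed with limma-voom (0.040), with scaling by library size alone (0.035) and with no filter on low counts (0.043).

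Genes of glutathione and peroxide metabolism had mostly lower values on the high fat diet, and none passed singly in the main test. The transcription factor NRF2 is known to drive many of them, which supply glutathione, NADPH and peroxidases. Of 28 listed as antioxidant genes and NRF2 targets, 26 were tested, and 21 had a log2 fold change below 0 (49.5% over all genes). At an unadjusted p under 0.05, 7 were lower and none higher (3.94% and 3.10% over all genes). Without overlap, 5 were lower (2.25% over all genes). The median of the 26 was -0.16, and -0.17 without NCD control 3. Their summed level was 1394, 1389, 1489 and 1421 CPM in NCD control 1 to 4 and 1259, 1292, 1164 and 1148 CPM in HFD control 1 to 4, so the groups did not overlap. The 5 members above 0 were Nfe2l2, Nqo1, Ephx1, Gpx1 and Abcc1. Among these, Nqo1 had a log2 fold change of 0.20 ± 0.33 (adjusted p = 0.98), or 0.44 without NCD control 3.

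Gclm, the modifier subunit of the enzyme that limits glutathione synthesis, stood at 21.1, 18.9, 17.97 and 21.7 CPM in NCD control 1 to 4 and at 14.1, 15.0, 13.3 and 14.5 CPM in HFD control 1 to 4. The groups of Gclm did not overlap, and its log2 fold change was -0.49 ± 0.09 (adjusted p = 0.078). Gclm passed with DESeq2 (0.00077), with limma-voom (0.034) and with scaling by library size alone (0.0077). The pentose phosphate enzymes Tkt (transketolase) and Pgd (phosphogluconate dehydrogenase), which regenerate NADPH, had log2 fold changes of -0.46 ± 0.10 and -0.37 ± 0.11 (adjusted p = 0.12 and 0.33). Prdx1, a peroxiredoxin, stood at 77.9 to 85.6 CPM in the NCD libraries and 52.4 to 72.3 CPM in the HFD libraries (log2 fold change -0.33 ± 0.11, adjusted p = 0.50). Tkt, Pgd and Prdx1 also showed no overlap between the groups, and Tkt passed with DESeq2 (0.0010) and with scaling by library size alone (0.0089).

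The promoters of Gclm and Prdx1 are shown because both genes are classic NRF2 targets and hold the core of the antioxidant response element, TGACNNNGC, on their reverse strand. The 250 bases before each RefSeq start are given (GRCm38.p6, Gclm chr3:122245307-122245556 and Prdx1 chr4:116685349-116685598, both plus strand), with that core and GCGTG, or their reverse complements, in capitals.
Gclm: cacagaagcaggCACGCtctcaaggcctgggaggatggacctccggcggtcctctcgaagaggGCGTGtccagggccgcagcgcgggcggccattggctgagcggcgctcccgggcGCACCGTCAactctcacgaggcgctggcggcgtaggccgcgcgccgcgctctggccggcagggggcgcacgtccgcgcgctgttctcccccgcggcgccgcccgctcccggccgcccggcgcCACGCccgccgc
Prdx1: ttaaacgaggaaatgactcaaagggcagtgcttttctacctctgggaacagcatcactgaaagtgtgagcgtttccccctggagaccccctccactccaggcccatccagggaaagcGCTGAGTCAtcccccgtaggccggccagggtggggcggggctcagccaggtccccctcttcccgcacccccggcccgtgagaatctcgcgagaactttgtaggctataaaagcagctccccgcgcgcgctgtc
TGACNNNGC is present on either strand in 12.4% of all promoters of 300 bases. Searched were the called genes described and the 4 members with the lowest p of the aryl hydrocarbon receptor, antioxidant and stress response lists. Of the 16 genes searched that had a promoter in the table, 9 held GCGTG and 7 held TGACNNNGC. Some were thus picked from lists of known targets, so these counts do not measure enrichment in genes that differ between the diets.

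Glutathione transferases, which couple glutathione to electrophiles, gave a similar count: of 24 listed, 18 were tested and 14 were below 0 (49.5% over all genes). At an unadjusted p under 0.05, 7 were lower and 1 higher (3.94% and 3.10% over all genes). The median was -0.27, or -0.13 without NCD control 3. Mgst1, the microsomal member, stood at 78.4, 83.7, 103 and 101 CPM in NCD control 1 to 4 and at 60.8, 64.2, 59.6 and 61.8 CPM in HFD control 1 to 4. The HFD libraries were closely grouped below the NCD libraries, with a log2 fold change of -0.57 ± 0.12 (adjusted p = 0.12). Mgst1 passed with DESeq2 (0.0017) and with scaling by library size alone (0.014). Gsta4, which clears lipid peroxidation aldehydes, and Gstm2 had log2 fold changes of -0.95 ± 0.24 and -0.91 ± 0.25 (adjusted p = 0.23 and 0.27), without overlap. Reads of the closely similar transferase genes can be split between them by the quantification, so the single members are uncertain.

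Genes of the integrated stress response leaned the other way. This response is known to act through the factor ATF4 to raise amino acid synthesis and transport and the mitochondrial one-carbon enzymes. Of 38 listed, 36 were tested, 28 were above 0 (50.5% over all genes), and none passed. At an unadjusted p under 0.05, 9 were higher and 1 lower (3.10% and 3.94% over all genes). Without overlap, 4 were higher and 1 lower (1.87% and 2.25% over all genes). The median was 0.27, and 0.35 without NCD control 3. With scaling by library size alone the list median was 0.10, where the median of all genes was -0.16. The summed level overlapped between the groups, at 1412, 1413, 1596 and 1167 CPM in NCD control 1 to 4 and 2063, 1485, 1530 and 1278 CPM in HFD control 1 to 4, with HFD control 1 the highest.

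Mthfd2, a mitochondrial one-carbon enzyme, stood at 2.14, 3.84, 4.19 and 3.43 CPM in NCD control 1 to 4 and at 13.4, 7.42, 6.23 and 6.59 CPM in HFD control 1 to 4. All HFD libraries lay above the NCD libraries, with HFD control 1 far above the rest (log2 fold change 1.32 ± 0.38, adjusted p = 0.34). Shmt2, the mitochondrial serine hydroxymethyltransferase, and Cebpg, a partner of ATF4, had log2 fold changes of 0.54 ± 0.15 and 0.38 ± 0.13 (adjusted p = 0.30 and 0.49), without overlap. Asns, asparagine synthetase, stood at 55.2 to 81.9 CPM in the NCD libraries and 74.4 to 121 CPM in the HFD libraries, overlapping through HFD control 4 (log2 fold change 0.47 ± 0.18, adjusted p = 0.64). The member lower without overlap was Mthfd1l, also a one-carbon enzyme, at 0.358 to 0.520 CPM in the NCD libraries and 0 to 0.322 CPM in the HFD libraries (log2 fold change -0.81 ± 0.54, adjusted p = 0.86). The member lower at an unadjusted p under 0.05 was Cebpb (log2 fold change -0.62 ± 0.27, adjusted p = 0.67).

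The promoter of Asns is shown because it is a classic ATF4 target and 1 of 2 genes searched with the core TGATGNAA of the C/EBP-ATF element, present in 3.97% of all promoters of 300 bases. These are the 250 bases before its start (GRCm38.p6, chr6:7693210-7693459, minus strand), with TGATGNAA, TGACNNNGC and GCGTG, or their reverse complements, in capitals.
Asns: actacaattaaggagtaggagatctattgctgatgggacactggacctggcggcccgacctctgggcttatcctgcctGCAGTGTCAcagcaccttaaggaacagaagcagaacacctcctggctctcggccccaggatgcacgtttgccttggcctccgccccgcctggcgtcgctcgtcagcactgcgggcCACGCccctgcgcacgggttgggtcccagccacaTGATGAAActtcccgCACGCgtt
The C/EBP-ATF core begins 23 bases before the start.

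Milk protein and milk fat globule genes had mostly higher values, and none passed in the main test. Of 16 milk protein genes listed, 15 were tested, 11 were above 0 (50.5% over all genes), and the median was 0.20. At an unadjusted p under 0.05, 6 were higher and 1 lower (3.10% and 3.94% over all genes). Without overlap, 3 were higher (Glycam1, Mfge8 and Trf) and 3 lower (Spp1, Lpo and Ltf), of which Trf, Lpo and Ltf are named after their values were seen. Over all genes, 1.87% were higher and 2.25% lower without overlap. Spp1, the secreted phosphoprotein osteopontin, stood at 39.0 CPM in NCD control 3, 4.01 to 5.79 CPM in the other NCD libraries and 0.781 to 2.69 CPM in the HFD libraries, with a log2 fold change of -2.73 ± 0.89 (adjusted p = 0.46), or -1.34 without NCD control 3. With scaling by library size alone, which moved the median of all genes to -0.16, the milk protein median was 0.03; the medians of the aryl hydrocarbon receptor (-0.04), ion transport (-0.09), tight junction (-0.14), fatty acid synthesis (-0.09) and prolactin (-0.05) lists were then below 0, a move of about the shift of all genes. Csn2, beta-casein, had a log2 fold change of 0.21 ± 0.09 and Wap, whey acidic protein, 0.30 ± 0.12 (adjusted p = 0.67 and 0.65), and Lalba, alpha-lactalbumin, the partner of lactose synthase, -0.01 ± 0.14. Glycam1, a secreted mucin-like milk protein, stood at 2527, 3127, 2405 and 2849 CPM in NCD control 1 to 4 and at 6544, 4556, 4586 and 3987 CPM in HFD control 1 to 4. The groups of Glycam1 did not overlap, and its log2 fold change was 0.85 ± 0.22 (adjusted p = 0.23). Glycam1 passed with DESeq2 (0.024).

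The milk fat globule is the membrane-wrapped droplet in which triglyceride leaves the luminal cell. Of 17 tested genes of this list, 12 were above 0, and 5 were higher without overlap and none lower (1.87% and 2.25% over all genes). The median was 0.13, or -0.04 with scaling by library size alone. Mfge8, the globule's lactadherin, stood at 3997, 3804, 3568 and 4060 CPM in NCD control 1 to 4 and at 6985, 5132, 4796 and 5293 CPM in HFD control 1 to 4. All HFD libraries lay above the NCD libraries, with a log2 fold change of 0.53 ± 0.12 (adjusted p = 0.13). Mfge8 passed with DESeq2 (0.0054). Xdh, xanthine dehydrogenase, a structural protein of the globule membrane, stood at 1906 to 2359 CPM in the NCD libraries and 2541 to 3359 CPM in the HFD libraries (log2 fold change 0.50 ± 0.14, adjusted p = 0.30). The mucin Muc1 and the fatty acid transporter Cd36 had log2 fold changes of 0.33 ± 0.14 and 0.26 ± 0.10 without overlap (adjusted p = 0.65 and 0.59).

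Genes of fatty acid synthesis showed no shared direction. Of 23 tested, 12 were above 0 and 11 below, with a median of 0.08. Fasn, fatty acid synthase, stood at 2805, 3774, 2975 and 5372 CPM in NCD control 1 to 4 and at 5472, 4406, 4780 and 4613 CPM in HFD control 1 to 4, and the groups overlapped through NCD control 4. The log2 fold changes of Fasn and Acaca, acetyl-CoA carboxylase, were 0.37 ± 0.21 and 0.49 ± 0.21 (adjusted p = 0.83 and 0.66). Scd1, the desaturase that makes oleate, stood at 168, 178 and 188 CPM in HFD control 1 to 3 and 356 CPM in HFD control 4, against 249.2 to 378 CPM in the NCD libraries (log2 fold change -0.47 ± 0.22, adjusted p = 0.68). Lpl, lipoprotein lipase, which frees fatty acids from circulating triglyceride, had a log2 fold change of 0.24 ± 0.15 (adjusted p = 0.83), and the 25 tested genes of fatty acid uptake and triglyceride synthesis had a median of 0.00. Of 34 tested genes of fatty acid oxidation, 28 were below 0 with a median of -0.08, and without NCD control 3 these were 16 and 0.00.

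**Figure D4:**
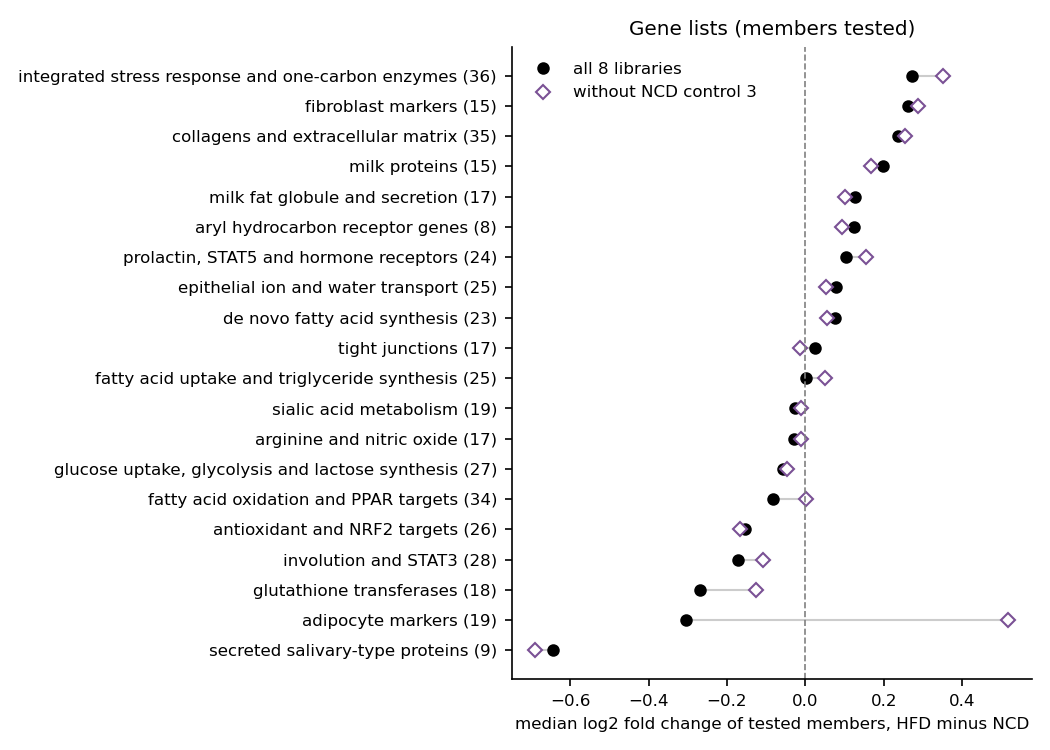
Median log2 fold change (HFD minus NCD) of the tested members of 20 gene lists, with all 8 libraries (filled circles) and without NCD control 3 (open diamonds), with the number of members tested in parentheses. The adipocyte list crosses from -0.30 to 0.52, whereas the stress response and antioxidant lists stay at 0.27 or above and at -0.16 or below.

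Genes of the extracellular matrix and fibroblast markers had mostly log2 fold changes above 0, but the HFD libraries differed among themselves. Of 35 matrix genes tested, 29 were above 0, and the median was 0.24, or 0.09 with scaling by library size alone. At an unadjusted p under 0.05, 8 were higher and none lower (3.10% and 3.94% over all genes). Of 15 fibroblast markers tested, 13 were above 0, with a median of 0.26, or 0.08 with scaling by library size alone. The summed matrix level was 896, 858, 981 and 855 CPM in NCD control 1 to 4 and 752, 839, 1247 and 1261 CPM in HFD control 1 to 4. HFD control 1 and 2 thus lay below every NCD library, and HFD control 3 and 4 above. The fibroblast score was 3.59 and 3.56 in HFD control 3 and 4 and 2.89 to 3.23 in the other 6. The part of this difference in the matrix genes was not tested.

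Fn1, fibronectin, which links cells to the matrix, stood at 9.06, 6.80, 5.08 and 7.55 CPM in NCD control 1 to 4 and at 14.5, 11.6, 18.2 and 22.2 CPM in HFD control 1 to 4. The groups did not overlap, and the log2 fold change was 1.21 ± 0.24 (adjusted p = 0.086). Fn1 passed without NCD metformin 3 (0.043), with DESeq2 (0.00043) and with limma-voom (0.035). Mfap5, a microfibril protein, stood at 1.11 to 1.63 CPM in the NCD libraries and 2.18 to 3.13 CPM in the HFD libraries (log2 fold change 0.85 ± 0.19, adjusted p = 0.13). Mfap5 passed with DESeq2 (0.043). Pi16, a marker of adventitial fibroblasts, stood at 3.61 to 6.29 CPM in the NCD libraries and at 9.44, 5.63, 18.2 and 15.5 CPM in HFD control 1 to 4 (log2 fold change 1.39 ± 0.41, adjusted p = 0.34). Vcan, versican, and Bgn, biglycan, both matrix proteoglycans, had log2 fold changes of 0.94 ± 0.33 and 0.54 ± 0.20 (adjusted p = 0.53 and 0.58).

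Genes known to rise in involution, when milk removal stops and the factor STAT3 is activated, had mostly lower values. Of 30 listed, 28 were tested, 21 were below 0 (49.5% over all genes), none passed in the main test, and the median was -0.17, or -0.11 without NCD control 3. At an unadjusted p under 0.05, 5 were lower and 2 higher (3.94% and 3.10% over all genes). The 7 members above 0 were Igfbp5, Osmr, Mmp2, Tgfb3, Il6st, Clu and Lifr. Of these, Osmr and Il6st were the 2 higher at that p, at 0.46 ± 0.21 and 0.31 ± 0.14 (adjusted p = 0.68 and 0.67). Stat3 itself stood at -0.16 ± 0.17 (adjusted p = 0.95). Besides Chil1 and Lcn2, the lower members include Lrg1, a secreted leucine-rich glycoprotein of the acute phase. It stood at 9.15, 9.27, 10.8 and 17.7 CPM in NCD control 1 to 4 and at 3.94, 5.94, 3.20 and 2.79 CPM in HFD control 1 to 4. The groups of Lrg1 did not overlap, and its log2 fold change was -1.54 ± 0.33 (adjusted p = 0.12). Lrg1 passed with DESeq2 (0.0010) and with scaling by library size alone (0.035). Of 24 tested genes of prolactin signalling and hormone receptors, none passed and the median was 0.10. Stat5a and Stat5b, which carry the prolactin signal, had log2 fold changes of -0.40 ± 0.12 and -0.48 ± 0.20 (adjusted p = 0.39 and 0.65), and Esr1, the estrogen receptor, 1.02 ± 0.39 (adjusted p = 0.61).

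The same diet difference was measured between the 2 groups that received metformin, which share no library with the 8 above. Their comparison called 295 of 12506 genes (2.36%). The difference between the diet effects without and with metformin was itself tested in the same fit, and edgeR called 0 of 12506 genes, with 1243 at an unadjusted p under 0.05; DESeq2 called 22. Of the 7 genes described, Cyp1a1, Prol1, Adig and Scnn1b passed in both comparisons and in the same direction. With metformin, the log2 fold change was -4.82 ± 0.56 in Cyp1a1 (adjusted p = 0.0022) and -3.26 ± 0.71 in Prol1 (adjusted p = 0.036). For Adig it was -0.74 ± 0.18 (adjusted p = 0.045), and for Scnn1b 0.49 ± 0.11 (adjusted p = 0.038).

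Renbp, Ddah1 and Mpzl2 did not pass with metformin: their log2 fold changes were -0.10 ± 0.17, 1.12 ± 0.34 and -0.35 ± 0.18 (adjusted p = 0.80, 0.089 and 0.32). Renbp stood at 20.5 to 24.8 CPM in the NCD libraries with metformin and 15.5 to 27.0 CPM in the HFD libraries with metformin, so these groups overlapped. For Renbp the difference between the diet effects was -0.97 with an adjusted p of 0.33, which did not pass. Serpina11 and Slc39a4, which missed the threshold without metformin, passed with it, at 1.38 ± 0.31 and -1.40 ± 0.33 (adjusted p = 0.039 and 0.040). Fn1 had opposite signs, 1.21 without and -0.38 ± 0.24 with metformin, and the difference did not pass (adjusted p = 0.33).

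**Figure D5:**
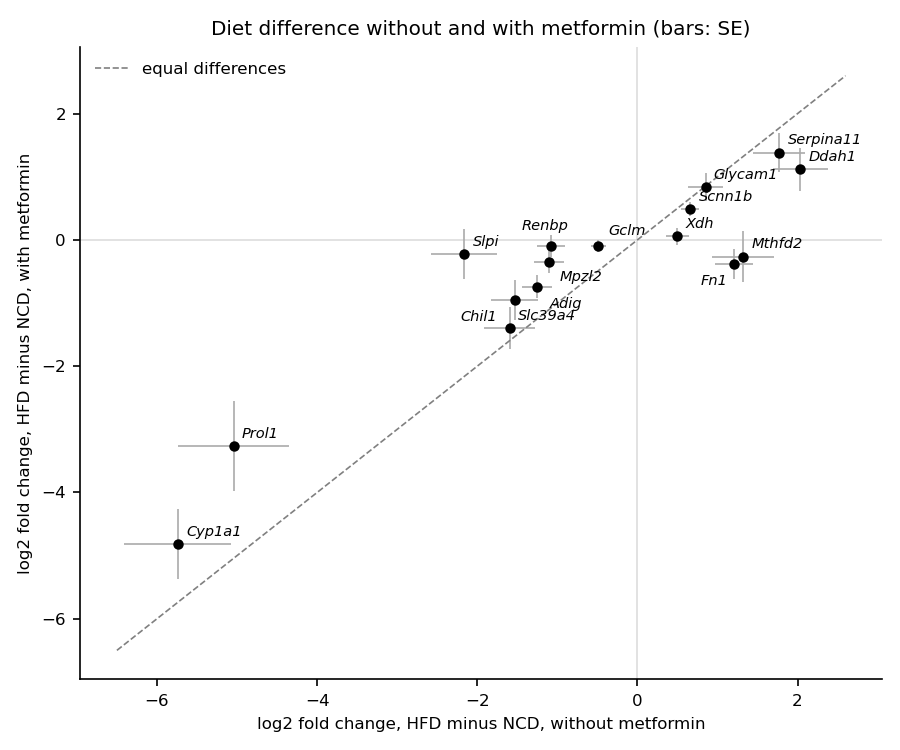
Log2 fold change of the high fat diet without metformin (horizontal axis) and with metformin (vertical axis) for 16 genes. Bars are standard errors worked back from the test statistic, and both values are equal on the dashed line. Cyp1a1 and Prol1 lie far to the lower left in both, and Renbp, Slpi and Gclm lie near 0 with metformin only.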

How the data were processed

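RNA of 16 libraries from mouse inguinal mammary gland was measured, 4 in each of 4 groups. Per the labels' protocols it was extracted with an RNeasy kit and made into directional libraries. The authors deposited 1 transcript table per library with estimated counts and TPM. The submitters' processing notes name Salmon 1.3.0, DESeq2 1.28.1 and GRCm38.p6 without their roles. The listed transcript lengths equal the coding length in GENCODE M21 for all 56929 transcripts that could be compared (within 3 bases), so reads of untranslated regions were not quantified.

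Estimated counts were summed to 22196 genes (57452 of 58204 transcripts matched, the rest holding at most 0.22% of a library) and rounded. The main test was edgeR 4.0.16 (R 4.3.3): filterByExpr, TMM, 1 quasi-likelihood fit of 4 group means, two-sided, Benjamini-Hochberg over 12506 genes, threshold 0.05. Values after ± are standard errors worked back from each log2 fold change and its quasi-likelihood F statistic, not fitted separately. CPM use TMM-scaled library sizes. Totals of 8649316 to 39156617 reads put the floor of 3 counts at 0.0766 to 0.347 CPM; exact intervals are Clopper-Pearson and cover counting error only. No 2 libraries agreed within sampling noise (lowest chi-square per degree of freedom 13.9 over 120 pairs). On simulated data (12477 genes) the fit recovered 100% of genes changed 4-fold in either direction. It recovered 66% of those raised 2-fold and 70% of those lowered to 0.5 of their level, with 8 false calls. In the libraries themselves Ddah1 passed at a log2 fold change of 2.04, but Slpi at -2.16 and Adcy2 at 2.03 did not. The simulated percentages are therefore not a detection rate for these libraries.

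The comparison and the gene lists were chosen with earlier results of these data known. Named were the called genes, the next by p to 24 with a mean of at least 1 CPM, up to 4 members of each list by p, and fixed marker genes; the text describes most of these. Of the 8 called genes, 1 is not reported here. Alternatives were DESeq2 1.42.0, limma 3.58.1 (voom with quality weights), other scalings and filters, counts rebuilt from TPM, only the 8 libraries, a term for the gap in the title numbers, and each library left out. Promoters are from RefSeq.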

Additional observations from a re-analysis of the deposited data

Results flagged for a closer look

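In each group of 4 libraries the gap of the highest or lowest library to its nearest neighbour was set against the range of the group. Among 136 such groups, some libraries stood apart by Dixon's criterion, which chance alone meets in about 1 in 20 groups. NCD control 3 stood apart as the highest library in Acta1 (414 CPM), Adipoq (75.5 CPM), Cfd (564 CPM), Spp1 (39.0 CPM) and Tiparp (14.3 CPM). NCD control 1 stood apart as the highest in Cst6 (31.4 CPM) and the lowest in Asns (55.2 CPM), and NCD control 4 as the highest in Slc39a4 (6.95 CPM). HFD control 4, the shallowest library, stood apart as the highest in Scd1 (356 CPM) and Stat5a (59.2 CPM) and the lowest in Pon3 (1.90 CPM). HFD control 3 stood apart as the highest in St6gal1 (113 CPM), Acta1 (2.06 CPM) and the skeletal muscle score (0.36 on the log2 scale), and HFD control 1 as the highest in Mthfd2 (13.4 CPM).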

How the results depend on the processing

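The 8 genes called between the diets without metformin became 65 with DESeq2, 22 with limma-voom and quality weights, and 39 with scaling by library size alone, of which 25, 8 and 2 were higher. They became 9 when only the 8 libraries were fitted, 3 of them among the 8. They became 5 with a term for the gap in the title numbers (10 and 14), a gap that partly follows the diet. They became 4 without NCD control 3 and HFD control 4 together. Leaving out 1 of the 16 libraries gave 2 to 13. The interaction, 0 genes, became 22 with DESeq2, and leaving out 1 library gave 0 to 1. Signs turned for 8 named genes that did not pass in any of these settings, and the cause was not tested. Leaving out 1 library gave log2 fold changes of -0.75 to 1.16 for Adipoq, -1.32 to 0.34 for Cfd and -0.82 to 0.088 for Tiparp, each highest and above 0 without NCD control 3. It gave -0.16 (without HFD control 3) to 0.30 for Acta2, and -0.10 to 0.070 for Lalba, above 0 without NCD control 4, HFD control 1 or HFD control 4. Without NCD control 3 and HFD control 4 together the values were 0.83 for Adipoq, 0.069 for Cfd, 0.16 for Tiparp, 0.0086 for Pfkm and 0.049 for Lalba. Library size alone gave -0.014 for Acly, -0.043 for Krt18 and -0.034 for Acta2. Limma-voom gave 0.46 for Adipoq and 0.041 for Lalba. Of the named genes' values under 27 alternatives, 2634 kept their direction and side of the threshold, 59 newly passed, 58 no longer passed and 17 changed sign. No paired analysis was possible because the labels carry no replicate numbers shared between groups. Depth limits Cyp1a1 on the high fat diet, where no library reached 3 counts.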

Other observations

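Lists with no gene called in the comparison of the diets without metformin also covered other functions of the gland. Of 26 tested genes of cholesterol synthesis, 19 had a log2 fold change below 0, with a median of -0.08. Of 41 tested nuclear subunits of the respiratory chain, which makes ATP in mitochondria, 37 were below 0 with a median of -0.09, and without NCD control 3 these were 26 and -0.03. The 13 genes of the mitochondrial genome had a median of 0.02, and the 24 tested genes of protein folding in the endoplasmic reticulum 0.00. The 19 circadian clock genes had a median of 0.07, the 24 tested cell cycle genes -0.08 and the 24 tested interferon response genes -0.07. Over all tested genes the median was 0.00.

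For markers of other cell types, median log2 fold changes were 0.04 for 17 luminal epithelial markers, 0.07 for 15 myoepithelial markers, 0.17 for 18 endothelial markers and -0.02 for 18 macrophage markers. The luminal score was 5.29 in HFD control 4 and 5.89 to 6.17 in the other 7 libraries. Of the 13 neutrophil markers listed 4 were tested, with a median of -0.28, of 16 T and NK cell markers 5, with a median of -0.50, and of 15 B and plasma cell markers 10, with a median of -0.48. The 6 tested red cell markers had a median of 0.74, with the highest score, 5.91, in HFD control 1. No gene of these lists passed.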
